A study of Homo sapiens with 40 samples.

Results

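The genes described here are 10 genes of the endoplasmic reticulum (ER) branch of the unfolded protein response, chosen by name from the 58395 genes of the deposited count table: HSPA5, HSP90B1, HYOU1, DNAJB9, SDF2L1, PDIA4, HERPUD1, XBP1, MANF and CRELD2. All 10 passed the low-count filter. They were followed across both genotypes and all 5 treatments of HEK293A cells, an adherent line derived from human embryonic kidney. The question was whether the ER folding machinery moved together with a list of genes linked to the transcription factor ATF4. The activity of ATF4 itself was not measured.

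The transcriptome was measured by poly(A) RNA sequencing in wild-type HEK293A cells (WT) and in a line lacking PARP1 (PARP1-KO). The knockout line is a single clone with a homozygous deletion inside PARP1, made with CRISPR/Cas9, so that the absence of PARP1 and other properties of the clone cannot be told apart. Cells of each genotype were left untreated or received 0.1% DMSO, the TOP1 poison topotecan (Tpc) with 0.1% DMSO, 5 µM of the TDP1 inhibitor OL9-119 dissolved in 0.1% DMSO, or Tpc with OL9-119, for 5 to 5.5 h. Tpc was given at 100 nM to WT and at 50 nM to PARP1-KO cells, so that each Tpc arm differs in dose between the genotypes. Each of the 10 conditions had 4 libraries, 40 in all. The labels call the replicates biological and the methods call them technical in 1 place, so that p-values may measure only technical spread.

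Total counts per library ranged from 3455043 to 20379777. Mean PARP1 levels in PARP1-KO cells were between 4.33% and 5.24% of the WT mean at the same treatment, and every PARP1-KO library (30.4 to 46.6 CPM) lay below every WT library (737 to 887 CPM). CPM are counts scaled to a common library total after TMM scaling, a correction for library composition. The line expressed VIM (471 to 970 CPM), KRT8 (532 to 1032 CPM) and KRT18 (189 to 514 CPM), while PAX2, a kidney marker of HEK293 cells, was low at 0.0979 to 12.1 CPM. These line markers moved with the genotype. With DMSO, VIM was higher in PARP1-KO than in WT cells (log2 fold change 0.60) and KRT18 (-0.74), KRT8 (-0.38), NEFM (-1.95) and PAX2 (-2.51) were lower, all 5 called by edgeR at an adjusted p below 0.01. Their part in the genotype differences was not tested. The nephron gene UMOD had no count in any library, and NPHS1, PTPRC and ALB, markers of podocytes, leukocytes and hepatocytes, stayed at or below 2.06 CPM. In such bulk samples, fewer cells expressing a gene and less RNA per cell cannot be told apart.

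Proteins that enter the ER fold with the help of lumenal chaperones, and an excess of unfolded chains frees 3 membrane sensors, ATF6, IRE1 (ERN1) and PERK (EIF2AK3), from the chaperone BiP. ATF6 is cut to a transcription factor and IRE1 splices the XBP1 mRNA, and both raise genes for chaperones, folding enzymes and ER-associated degradation. PERK phosphorylates eIF2α, which favours translation of ATF4, but other kinases reach eIF2α as well, so ATF4 targets can rise without ER stress. Of the genes described here, HSPA5 encodes BiP, the Hsp70 of the ER lumen, HSP90B1 encodes its Hsp90 (GRP94), and HYOU1 (GRP170) is a large chaperone that acts as a nucleotide exchange factor for BiP. DNAJB9 (ERdj4) is a J-domain co-chaperone of BiP, SDF2L1 works with ER J-domain proteins, and PDIA4 (ERp72) is a protein disulfide isomerase. HERPUD1 is a membrane scaffold of ER-associated degradation whose gene is known to answer to ATF4 as well as to ATF6. MANF and CRELD2 are small ER proteins that are secreted under stress.

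Promoter sequences of the 10 genes were examined for the sites through which ATF6, XBP1 and ATF4 are known to act. RefSeq windows (GRCh38.p14, 250 bases before to 50 after each transcript start) were available for all 10 genes, in 12 windows. The ER stress element ERSE, searched as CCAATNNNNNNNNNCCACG on both strands, was in the windows of HSPA5, HSP90B1, XBP1 and CRELD2, against 0.0769% of 35116 windows of all genes. The element ERSE-II, ATTGGNCCACG, was in those of HYOU1, HERPUD1 and SDF2L1, against 0.0541% of all windows. Together, 7 of the 10 genes had a match to either element, against 0.131% of all windows. These comparisons set a count of genes beside a share of windows. The 10 genes were chosen as genes of this response, so the number with a match is a description and not a test. The stretches that hold the matches are given below on the strand of each gene, with the fixed letters of the elements in capitals. Where an element lies in the opposite orientation, its reverse complement is capitalised. In these 7 stretches, every letter outside the capitals is spacer or flanking sequence.

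HSPA5, minus strand of chr9:125241386-125241414, ERSE: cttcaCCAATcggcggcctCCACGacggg
HSP90B1, plus strand of chr12:103930211-103930239, the first of its ERSE matches: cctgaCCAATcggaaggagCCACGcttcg
XBP1, minus strand of chr22:28800598-28800626, ERSE: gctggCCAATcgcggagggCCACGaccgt
CRELD2, plus strand of chr22:49918534-49918592, ERSE in reverse: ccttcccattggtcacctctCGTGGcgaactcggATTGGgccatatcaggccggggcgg
HYOU1, minus strand of chr11:119057266-119057401, a UPRE joined to an ERSE-II in reverse, then a second ERSE-II in reverse: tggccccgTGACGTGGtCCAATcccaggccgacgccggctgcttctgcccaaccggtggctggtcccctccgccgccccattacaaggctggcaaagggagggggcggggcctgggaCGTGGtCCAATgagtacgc
HERPUD1, plus strand of chr16:56931958-56932043, a CARE in reverse, then an ERSE-II: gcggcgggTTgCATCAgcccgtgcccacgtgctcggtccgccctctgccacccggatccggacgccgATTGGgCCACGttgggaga
SDF2L1, plus strand of chr22:21642090-21642148, ERSE-II in reverse: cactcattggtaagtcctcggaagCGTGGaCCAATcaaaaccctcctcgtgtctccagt

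The UPRE, the XBP1 and ATF6 site TGACGTGG, was found only in the HYOU1 window among the 10 genes, where it overlaps an ERSE-II, and in 0.729% of all windows. The amino acid response element bound by ATF4 with C/EBP proteins (CARE), searched as TGATGNAA, was in the HERPUD1 window alone among the 10 genes. It was in 3.62% of all windows and in those of 5 of 14 matched ATF4-arm genes, namely ASNS, ATF3, CEBPG, CHAC1 and SLC3A2. The windows of DNAJB9, PDIA4 and MANF held no match to any of these elements. A match describes the letters of a window and not a bound site.

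The 10 genes lie on 7 chromosomes (hg38). HSPA5 is at chr9:125234853-125241382 on the minus strand, HSP90B1 at chr12:103930107-103953931 on the plus strand, and HYOU1 at chr11:119044188-119057227 on the minus strand. The co-chaperone genes DNAJB9 and SDF2L1 are at chr7:108569867-108574850 and chr22:21642302-21644299, both on the plus strand. PDIA4 is at chr7:149003062-149028662 on the minus strand and HERPUD1 at chr16:56932142-56944864 on the plus strand. XBP1 (minus strand) is at chr22:28794555-28800597, CRELD2 (plus strand) at chr22:49918167-49927540 and MANF (plus strand) at chr3:51385291-51389397. Counts cover whole genes and do not separate exons or isoforms.

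Levels of the 10 genes were compared with each other per kilobase of the canonical transcript. In WT libraries, HSP90B1 had the highest median at 743 CPM per kb, followed by HSPA5 at 296, XBP1 at 138, PDIA4 at 91.5 and MANF at 67.3 CPM per kb. HYOU1 at 29.2, CRELD2 at 22.1, HERPUD1 at 17.3, SDF2L1 at 16.2 and DNAJB9 at 12 CPM per kb formed the lower group. Only between HSP90B1 and HSPA5, and between MANF and HYOU1, did the ranges of neighbours in this order not overlap. Raw counts ran from 6798 to 38469 per library for HSP90B1 but only from 20 to 267 for SDF2L1, the gene with the least certain values. CRELD2 overlaps ALG12 on the opposite strand, and the strand setting of the counting was not stated, so reads of this pair may be mixed.

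Across the 10 conditions the range of mean levels was narrow. The ratio of the highest to the lowest condition mean was 1.20 for MANF, 1.5 for HSP90B1 and 1.57 for HSPA5. It was 1.77 for DNAJB9, 1.92 for HYOU1, 1.96 for CRELD2, 2.00 for XBP1 and 2.13 for HERPUD1, and reached 2.35 for SDF2L1 and 2.54 for PDIA4. MANF lay between 49.7 and 94.3 CPM in WT and between 50.0 and 74.0 CPM in PARP1-KO libraries, ranges that overlapped, with the highest values in WT libraries, and it was called in none of the comparisons made here by edgeR. The plot of levels by library shows which genes separated by genotype and which by treatment.

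**Figure D1:**
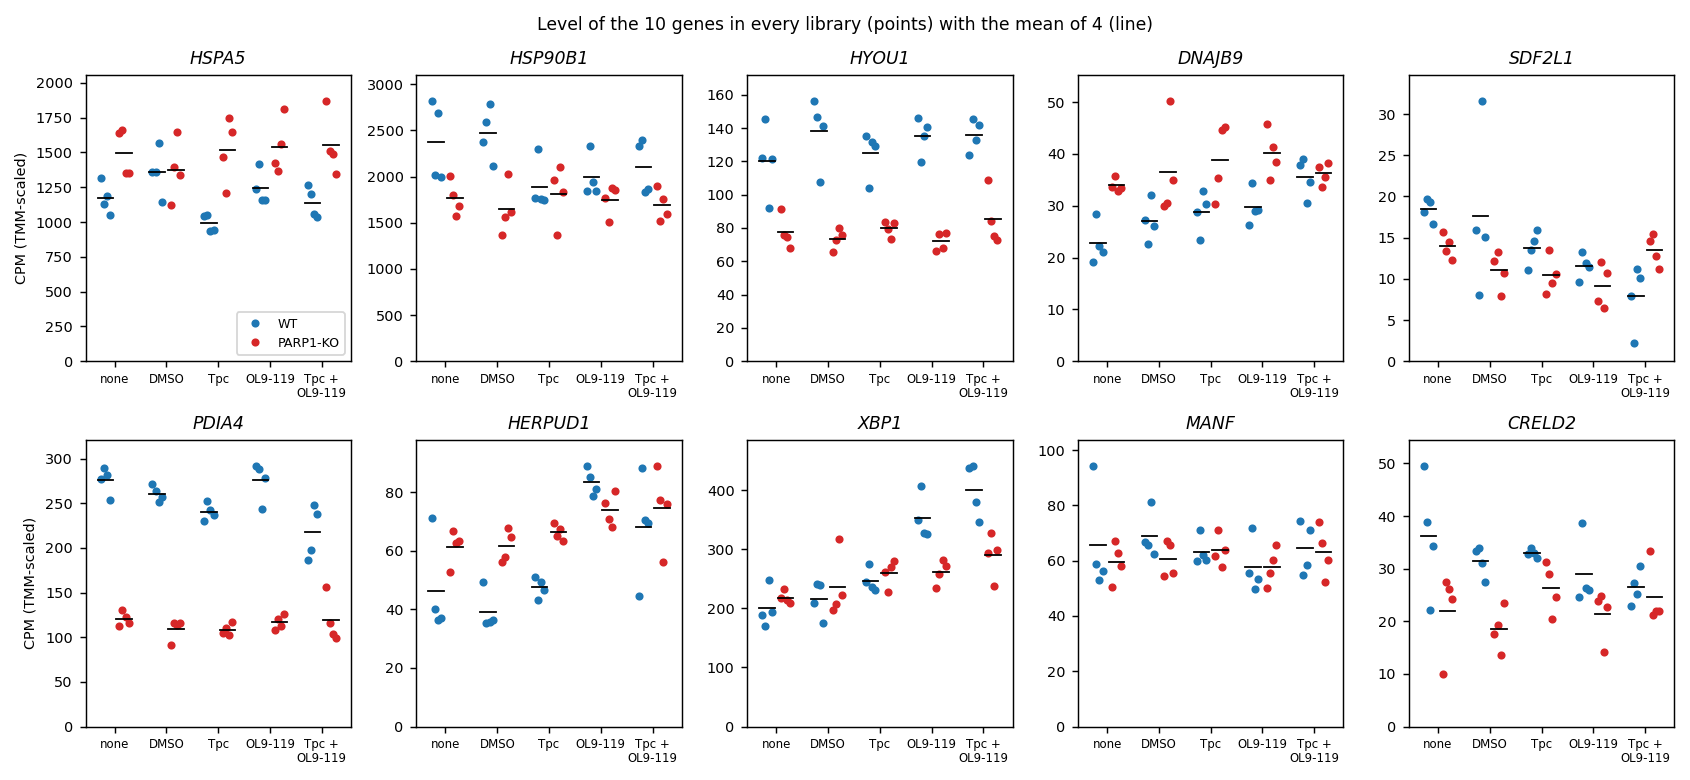
Level (CPM, TMM-scaled, linear axes from 0) of the 10 genes in each of the 40 libraries, in WT (blue) and PARP1-KO (red) cells under 5 treatments, with a line at the mean of 4. PDIA4 lay between 186 and 292 CPM in WT and between 91.4 and 157 CPM in PARP1-KO libraries, whereas the mean of HERPUD1 was highest with OL9-119 (83.5 CPM) and that of XBP1 with Tpc + OL9-119 (401 CPM), both in WT cells.

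PARP1-KO and WT cells were compared with DMSO, the solvent that every drug arm contains. Of the 10 genes, 4 were downregulated in PARP1-KO cells (PDIA4, HYOU1, CRELD2 and HSP90B1) and 1 was upregulated (HERPUD1), by edgeR's quasi-likelihood test at a Benjamini-Hochberg adjusted p below 0.01. In this comparison 12.4% of the 28922 genes tested were called, 5.75% as lower and 6.67% as higher. These 28922 genes include some with as few as 10 counts over all libraries, which lowers the share called. With the stricter count filter filterByExpr, 1972 of 18230 genes were called higher and 1893 lower. The shares given for the other comparisons rest on the same 28922 genes. The median log2 fold change of the 10 genes was -0.39, against 0.19 for all tested genes and 0.02 for those with a mean of at least 50 counts. The library name prefixes, whose meaning the labels do not give, fall into 3 sets, and ranges over them are given beside the called genes. Within a prefix each group has only 1 or 2 libraries, so these ranges describe single libraries and are not replicated checks.

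Among the chaperones, HSPA5 had 1357, 1358, 1568 and 1147 CPM in the WT libraries with DMSO and 1124, 1399, 1645 and 1339 CPM in the PARP1-KO libraries. The groups overlapped almost fully, with a log2 fold change of 0.02 and a 95% interval from -0.21 to 0.25 (edgeR adjusted p = 0.953). BiP mRNA, the usual readout of ER stress, therefore did not differ detectably between the genotypes with DMSO. Untreated, however, HSPA5 was 1171 ± 110 CPM (SD, n = 4) in WT and 1500 ± 171 CPM in PARP1-KO cells, a log2 fold change of 0.36 that missed the threshold (edgeR adjusted p = 0.02).

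HSP90B1 was at 2379, 2594, 2788 and 2117 CPM in WT and at 1372, 1566, 2026 and 1617 CPM in PARP1-KO cells with DMSO. Every PARP1-KO library lay below every WT library, and the log2 fold change was -0.59 ± 0.12 (SE, edgeR adjusted p = 0.000251; -0.70 to -0.36 within name prefixes). With a correction for transcript length and GC content the value was -0.99, more than 1.5 times as large. HYOU1 had 156, 147, 108 and 141 CPM in WT and 65.5, 72.8, 80.1 and 75.7 CPM in PARP1-KO cells. These groups did not overlap either, and the log2 fold change was -0.91 ± 0.13 (edgeR adjusted p = 2.75e-07; -1.18 to -0.70 within prefixes).

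PDIA4 showed the strongest genotype effect of the 10 genes. Its levels with DMSO were 271, 264, 251 and 257 CPM in WT and 91.4, 116.4, 113.3 and 115.5 CPM in PARP1-KO cells, a log2 fold change of -1.26 ± 0.12 (edgeR adjusted p = 5.59e-13; -1.39 to -1.14 within prefixes). The highest PARP1-KO library of all treatments, at 157 CPM, was below the lowest WT library, at 186 CPM. PDIA4 and HYOU1 were also downregulated in PARP1-KO cells without treatment (log2 fold changes of -1.19 and -0.64) and with OL9-119 (-1.23 and -0.91), with edgeR adjusted p-values between 1.79e-12 and 0.000203.

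HERPUD1 was the only one of the 10 genes upregulated in PARP1-KO cells with DMSO. It was at 49.2, 35.3, 35.8 and 36.5 CPM in WT and at 56.3, 57.9, 67.7 and 64.6 CPM in PARP1-KO cells, a log2 fold change of 0.65 ± 0.16 (edgeR adjusted p = 0.00247; 0.21 to 0.93 within prefixes). The groups did not overlap, with WT replicate 1 nearest to the PARP1-KO libraries. The call was lost with the length and GC correction (log2 fold change 0.52, adjusted p = 0.0136) and without WT replicate 2 or 4 or PARP1-KO replicate 3 or 4 (adjusted p between 0.0104 and 0.0129). It was also lost with only the compared libraries in the fit (edgeR adjusted p = 0.0189).

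CRELD2 had 33.3, 33.9, 31.2 and 27.6 CPM in WT and 17.6, 19.3, 13.5 and 23.5 CPM in PARP1-KO cells. The groups did not overlap and the log2 fold change was -0.77 ± 0.22 (edgeR adjusted p = 0.00875; -1.31 to -0.32 within prefixes), but the call was lost without any of replicates 1, 2 and 3 of either genotype (adjusted p between 0.0129 and 0.0564). With only the compared libraries in the fit the call was lost too (edgeR adjusted p = 0.0171). The remaining genes were not called. DNAJB9 had a log2 fold change of 0.43 (95% interval 0.09 to 0.77) and SDF2L1 of -0.67 (-1.27 to -0.08), while XBP1 (0.13, -0.12 to 0.38) and MANF (-0.18, -0.48 to 0.12) had intervals that include 0.

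Without treatment, 4 of the 10 genes were called, 1 higher and 3 lower, where 11.7% of all tested genes were called (5.97% higher, 5.74% lower). PDIA4 and HYOU1 were joined by HSP90B1 (log2 fold change -0.43, edgeR adjusted p = 0.00843) and by DNAJB9, which was 22.8 ± 3.99 CPM (SD, n = 4) in WT and 33.9 ± 1.33 CPM in PARP1-KO cells (0.58, adjusted p = 0.0097). Both of these calls were close to the threshold. That of DNAJB9 was lost without any single library but WT replicate 2 (adjusted p between 0.018 and 0.0491), with the replicate number as a block (0.0107) and with the length and GC correction, where its log2 fold change was 0.34. That of HSP90B1 was lost without WT replicate 1 or 3 or PARP1-KO replicate 2, 3 or 4 (adjusted p between 0.0172 and 0.0628) and by DESeq2 (0.0167), and its log2 fold change was -0.79 with the length and GC correction. With only the compared libraries in the fit both calls were lost (edgeR adjusted p = 0.0431 for DNAJB9 and 0.0223 for HSP90B1). DNAJB9 also lost its call without a count filter (0.0266) and HSP90B1 with RLE scaling (0.0127).

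With OL9-119, only PDIA4 and HYOU1 of the 10 genes were called, where 9.77% of all tested genes were called (4.94% higher, 4.83% lower). XBP1 was lower in PARP1-KO than in WT cells in that arm by a log2 fold change of -0.43 (edgeR adjusted p = 0.011), a value at the threshold that passed with the replicate number as a block, with the name prefix as a covariate and with the length and GC correction, but not by DESeq2 or with RLE scaling. HSPA5 had a log2 fold change of 0.31 and HSP90B1 of -0.19, with adjusted p-values of 0.0556 and 0.345. PARP1-KO and WT cells were not compared in the Tpc arms because their doses differed. Side by side, HSPA5 was 993 ± 62.6 CPM (SD, n = 4) in WT with 100 nM Tpc and 1517 ± 238 CPM in PARP1-KO with 50 nM Tpc, and PDIA4 was 240 ± 9.3 and 108 ± 6.49 CPM.

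**Figure D2:**
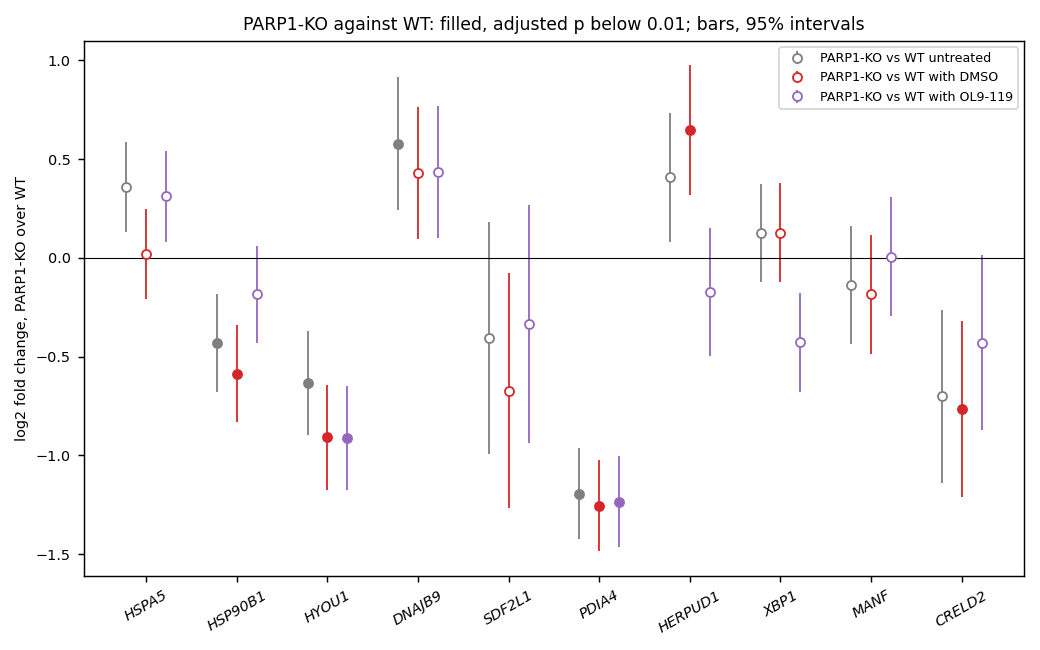
Log2 fold change of PARP1-KO over WT for the 10 genes without treatment (grey), with DMSO (red) and with OL9-119 (purple), with 95% intervals as bars and filled points for adjusted p below 0.01. PDIA4 lay near -1.2 in all 3 comparisons (-1.26 to -1.19), while HSPA5 was at 0.02 with DMSO and at 0.36 and 0.31 without treatment and with OL9-119.

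The genes around HYOU1 also had lower values. Of 28 genes within 1000 kb of its start and with a mean of at least 50 counts, 26 had lower values in PARP1-KO cells with DMSO, 17 of them were called lower and 0 higher, and their median log2 fold change was -0.82, close to the -0.91 of HYOU1 itself. Among these neighbours, SLC37A4 had -1.29, RPS25 -0.80 and H2AX -1.17. Over the whole of chromosome 11, 556 of 688 such genes were lower, with a median of -0.50. Around PDIA4 on chromosome 7, 10 of 14 neighbours were lower, 3 of them called, with a median of -0.40, and only 1 neighbour had a lower value than the -1.26 of PDIA4. HSP90B1 lay apart from its neighbours, whose median was 0.09 and none of which was as low as HSP90B1. All these values are with DMSO, and the distance to the neighbours varied between comparisons. HYOU1 was at -0.64 against a neighbour median of -0.74 without treatment, and at -0.91 against -0.57 with OL9-119. PDIA4 was at -1.19 against -0.12 without treatment, and at -1.23 against -0.40 with OL9-119. The part of the local shift in the values of HYOU1 and PDIA4 was not tested.

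**Figure D3:**
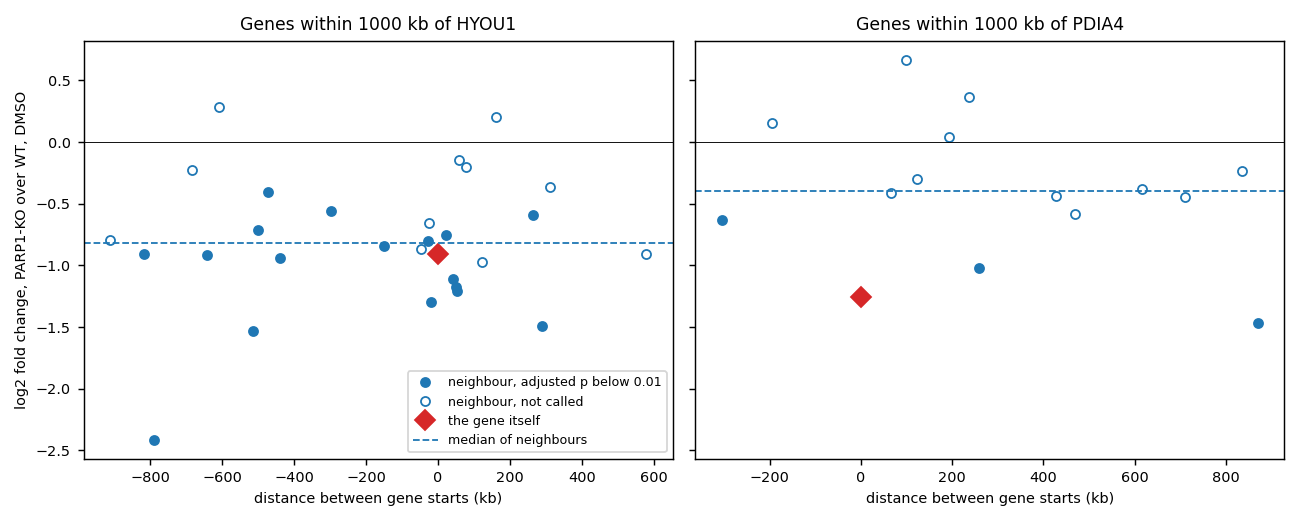
Log2 fold change of PARP1-KO over WT with DMSO for genes within 1000 kb of HYOU1 (left) and PDIA4 (right) against the distance between gene starts in kb, with filled circles for called genes, a red diamond for the gene itself and a dashed line at the median of its neighbours. In this comparison HYOU1 (-0.91) lies near the median of its 28 neighbours (-0.82), while PDIA4 (-1.26) lies below that of its 14 neighbours (-0.40).

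Next, the response of the 10 genes to the drugs was analyzed in WT cells against DMSO. With Tpc, 0 of the 10 genes were called by edgeR, where 0.985% of all tested genes were called (0.629% higher, 0.356% lower). Unadjusted p-values below 0.05 were reached by 2 of them and by 16.2% of all tested genes, and DESeq2 called 1. The 2 genes were the main chaperones and both were lower. HSPA5 had 1040, 1053, 933 and 945 CPM with Tpc, all below the lowest DMSO library at 1147 CPM, with a log2 fold change of -0.45 ± 0.11 (edgeR adjusted p = 0.0181). It was called by DESeq2, with the length and GC correction, without a count filter and without DMSO replicate 4. Against untreated WT cells, whose libraries ran from 1052 to 1313 CPM and reached the Tpc range, its log2 fold change was -0.24 (adjusted p = 0.302). HSP90B1 did not pass the threshold, with 1765, 2298, 1756 and 1747 CPM and a log2 fold change of -0.38 (adjusted p = 0.09). Among the settings tried it was called only without a count filter. Its replicate 2 lay within the range of the DMSO libraries and the other 3 below it.

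With OL9-119, 2 of the 10 genes were upregulated in WT cells, XBP1 and HERPUD1, where 1.15% of all tested genes were called (0.488% higher, 0.667% lower). HERPUD1 was at 89.0, 85.3, 78.7 and 81.0 CPM, all far above the DMSO libraries (35.3 to 49.2 CPM), with a log2 fold change of 1.09 ± 0.16 (edgeR adjusted p = 7.57e-06; 0.85 to 1.27 within prefixes). XBP1 was at 349, 406, 328 and 325 CPM with OL9-119 and at 209, 241, 239 and 175 CPM with DMSO, a log2 fold change of 0.71 ± 0.13 (adjusted p = 0.000157; 0.68 to 0.76 within prefixes). For both genes the groups did not overlap, and both calls held without any single library. When the dispersion was estimated from the compared libraries alone, that of XBP1 was lost (0.70, adjusted p = 0.0336). Gene counts do not separate spliced from unspliced XBP1 mRNA, so its processing by IRE1 was not measured.

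The chaperones did not follow. HSPA5 had a log2 fold change of -0.13 with OL9-119, with a 95% interval from -0.36 to 0.10, so that a rise of the size of that of XBP1 lies outside the interval. HSP90B1 was 1991 ± 232 CPM (SD, n = 4) against 2469 ± 288 CPM with DMSO, a log2 fold change of -0.31 (edgeR adjusted p = 0.18). For HYOU1 (-0.03), PDIA4 (0.08), DNAJB9 (0.14) and CRELD2 (-0.13) the log2 fold changes were small, and for SDF2L1 (-0.61) and MANF (-0.26) they were negative, with adjusted p-values of 0.283 and above.

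With Tpc + OL9-119, 3 of the 10 genes were called in WT cells, XBP1 and HERPUD1 as higher and SDF2L1 as lower, where 3.38% of all tested genes were called (1.84% higher, 1.54% lower). XBP1 reached 437, 441, 380 and 346 CPM, its highest condition, with a log2 fold change of 0.89 ± 0.13 against DMSO (edgeR adjusted p = 5.66e-07; 0.82 to 1.06 within prefixes). It was also the only one of the 10 genes called between Tpc + OL9-119 and Tpc alone (0.70, adjusted p = 0.000677), where 0.18% of all tested genes were called (0.118% higher, 0.0622% lower). HERPUD1 was at 44.7, 88.2, 70.6 and 69.5 CPM, a log2 fold change of 0.79 ± 0.17 (adjusted p = 0.000875; -0.14 to 1.31 within prefixes). Its replicate 1 fell within the range of the DMSO libraries while the other 3 lay above it. The call was lost without replicate 2 (adjusted p = 0.0154) and against untreated instead of DMSO cells (0.56, adjusted p = 0.0228). With only the compared libraries in the fit it was lost as well (edgeR adjusted p = 0.0688).

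SDF2L1 had 7.93, 2.16, 11.2 and 10.2 CPM with Tpc + OL9-119 and 16, 8.02, 31.6 and 15 CPM with DMSO, a log2 fold change of -1.19 ± 0.31 (edgeR adjusted p = 0.00902; -1.81 to -1.0 within prefixes). The groups overlapped, and the lowest library rested on 20 counts. The call was lost without DMSO replicate 1 or 3 or without replicate 1, 2 or 4 of the combination (adjusted p between 0.0101 and 0.153), with the replicate number as a block (0.0106) and with the length and GC correction (-0.88, 0.0305). It was also lost with only the compared libraries in the fit (edgeR adjusted p = 0.26). Without DMSO replicate 3 the log2 fold change was -0.76. DNAJB9 had a log2 fold change of 0.39 (95% interval 0.06 to 0.73, adjusted p = 0.146) and was called only against untreated cells. HSPA5 stood at -0.25 and PDIA4 at -0.26, neither past the threshold.

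In PARP1-KO cells 0 of the 10 genes were called with Tpc, OL9-119 or Tpc + OL9-119 against DMSO, by edgeR or by DESeq2, where edgeR called 0%, 0.00346% and 0% of all tested genes. Unadjusted p-values below 0.05 were reached by 1, 0 and 1 of the 10 genes and by 3.81%, 2.32% and 2.88% of all tested genes. XBP1 had a log2 fold change of 0.15 (95% interval -0.10 to 0.40) with OL9-119 and of 0.30 (0.05 to 0.55) with the combination. HERPUD1 had 0.26 (-0.06 to 0.59) and 0.28 (-0.05 to 0.60), from a DMSO level of 61.6 ± 5.42 CPM (SD, n = 4) that was already above that of WT cells. HSPA5 had 0.16 (-0.07 to 0.39) and 0.17 (-0.05 to 0.40). DMSO against no treatment gave 0 calls among the 10 genes in either genotype by edgeR and by DESeq2. Over all tested genes, edgeR called 0% in both, and DESeq2 called 3 as higher and 6 as lower for WT but 0 for PARP1-KO. An unadjusted p below 0.05 was reached by 0 of the 10 genes in either genotype, and by 10.8% of all tested genes for WT against 1.86% for PARP1-KO.

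Whether the response differed between the genotypes was tested as an interaction. For OL9-119, 0 of the 10 genes were called by edgeR and by DESeq2 where 0.1% of all tested genes were called (0.0207% higher, 0.0795% lower). An unadjusted p below 0.05 was reached by 3 of the 10 genes and by 8.37% of all tested genes. For HERPUD1 the interaction was -0.82 on the log2 scale (edgeR adjusted p = 0.24) and for XBP1 the interaction was -0.56 (adjusted p = 0.403). For Tpc + OL9-119, 0 were called by edgeR and by DESeq2 where 0.432% of all tested genes were called (0.121% higher, 0.311% lower). An unadjusted p below 0.05 was reached by 6 of the 10 genes and by 13% of all tested genes. SDF2L1 had an interaction of 1.48 (adjusted p = 0.0831), XBP1 of -0.60 (0.0953) and HSPA5 of 0.43 (0.23). In the Tpc + OL9-119 arms the Tpc dose also differed between the genotypes, which cannot be told apart from genotype.

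The genes of the ATF4 arm gave another picture in the same libraries. Of 15 genes on that list, 11 were upregulated and 0 downregulated in PARP1-KO cells with DMSO, with a median log2 fold change of 1.27. Without treatment these numbers were 11 and 0, with a median of 1.00. Between the genotypes with OL9-119, 3 were higher and 3 lower in PARP1-KO cells, with a median of -0.11. In WT cells 13 were upregulated with OL9-119 and 12 with Tpc + OL9-119, with medians of 1.18 and 1.28 and 0 downregulated in either. Between the genotypes, the share of all tested genes called higher was 6.67% with DMSO, 5.97% without treatment and 4.94% with OL9-119 (4.83% lower). In WT cells it was 0.488% with OL9-119 and 1.84% with Tpc + OL9-119. PPP1R15A, which directs the dephosphorylation of eIF2α, was 142 ± 33.2 CPM (SD, n = 4) in WT and 659 ± 35.7 CPM in PARP1-KO cells with DMSO, a log2 fold change of 2.21 (edgeR adjusted p = 1.12e-21). CHAC1, a glutathione-degrading enzyme, rose by a log2 fold change of 4.98 and SLC7A11, the cystine transporter, by 2.76 with OL9-119 in WT cells (adjusted p = 1.12e-12 and 2.98e-14).

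With Tpc alone, 5 of the 15 ATF4-arm genes were upregulated in WT cells, among them PPP1R15A (1.46, edgeR adjusted p = 2.6e-14) and CHAC1 (2.42, 0.000224). Of all tested genes, 0.629% were called higher. Under the alternatives the number of the 15 called ranged from 2 to 7, and without single libraries from 4 to 6. CHAC1 was close to 0 with DMSO in WT cells, at 1.36 ± 1.15 CPM (SD, n = 4) against 3.95 ± 2.97 CPM untreated. Against untreated cells its log2 fold changes were 0.98 for Tpc (adjusted p = 0.195), 3.54 for OL9-119 and 2.96 for the combination, while that of PPP1R15A with Tpc was 1.32. With Tpc, the median of the 10 ER genes was -0.12. In PARP1-KO cells 0 of the 15 were called by edgeR in any drug arm, and 1, 4 and 0 had an unadjusted p below 0.05 with Tpc, OL9-119 and Tpc + OL9-119. The OL9-119 response differed between genotypes in 10 of them, all smaller in PARP1-KO cells, where 0 of the 10 ER genes were called. In that interaction 0.0795% of all tested genes were called lower and 0.0207% higher. The comparisons against DMSO in WT cells and the genotype comparison with DMSO share the WT DMSO libraries. The median log2 fold change of the 10 ER genes was -0.39 for the genotype with DMSO, -0.08 for OL9-119 and -0.16 for Tpc + OL9-119 in WT cells, against medians for all tested genes of 0.19, 0.03 and 0.00.

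**Figure D4:**
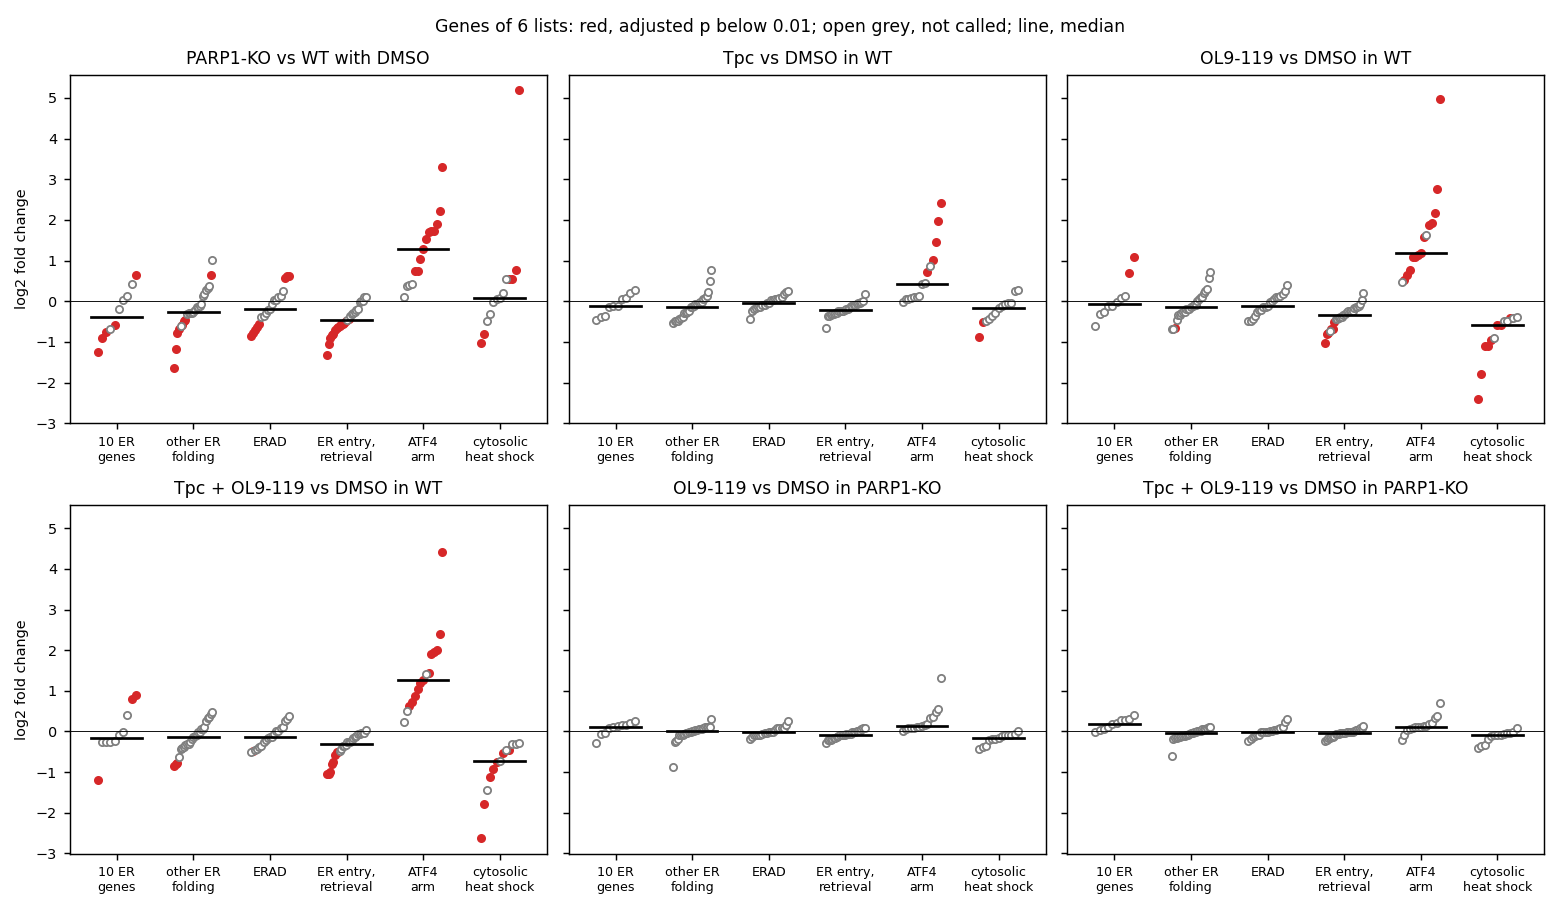
Log2 fold change of each gene of 6 lists in 6 comparisons, with red points for adjusted p below 0.01, open grey points for genes not called and a line at the list median. In WT cells with OL9-119 the ATF4 arm has 13 of 15 genes called higher and a median of 1.18, while 2 of the 10 ER genes are called and their median is -0.08; in PARP1-KO cells none of these lists has a called gene.

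The rest of the pathway was described with lists chosen for their roles, again with earlier results of these data known. The sensors themselves were not called with DMSO, with log2 fold changes of PARP1-KO over WT of 0.24 for EIF2AK3, 0.40 for ERN1 and 0.34 for ATF6 (edgeR adjusted p = 0.382, 0.238 and 0.0373). MBTPS2, the site-2 protease that releases ATF6 (-1.15, adjusted p = 7.73e-10), and ATF6B (-0.64, 0.00126) were downregulated, which made 2 of 7 sensor genes. Among 25 other ER folding genes 7 were lower and 1 higher, from FKBP2, a peptidyl-prolyl isomerase (-1.64, adjusted p = 3.82e-09), and PPIB, cyclophilin B (-1.18, 5.92e-09), to HSPA13 (0.64, 0.000773). Of 19 genes of ER-associated degradation, 5 were lower, such as the extraction ATPase VCP (-0.87, edgeR adjusted p = 1.02e-10) and the ubiquitin ligase SYVN1 (-0.78, 5.2e-05). Another 3 were higher, among them SEL1L and EDEM3 (0.63 each). Of all tested genes, 5.75% were called lower and 6.67% higher. Under the alternatives, 1 to 4 sensor genes, 5 to 13 other ER folding genes and 5 to 8 genes of ER-associated degradation were called. Without single libraries the sensor count ranged from 1 to 3.

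Genes for entry into the ER and retrieval cover the translocon, signal peptidase, oligosaccharyltransferase and KDEL receptors. In PARP1-KO cells with DMSO, 14 of these 26 were lower and 0 higher, with a median log2 fold change of -0.46. OSTC (-1.33, edgeR adjusted p = 9.12e-11) and OST4 (-1.05, 1.4e-06), both of the oligosaccharyltransferase, were the lowest. With only the compared libraries in the fit, 6 of the 26 were called in this comparison. Without treatment, 11 were lower and 0 higher in PARP1-KO cells (median -0.32). With OL9-119 in both genotypes, 5 were lower and 1 higher (median -0.21). In WT cells, 6 of the 26 were downregulated with OL9-119 and 8 with Tpc + OL9-119, such as SEC61G of the translocon (-1.04 in both) and DAD1 (-0.78 and -1.05), and 0 were upregulated in either. Without single libraries these counts ranged from 3 to 7 and from 5 to 11, with 3 without OL9-119 replicate 3 or 4 and 5 without combination replicate 1 or DMSO replicate 3, and with only the compared libraries in the fit they were 0 and 1. The other ER folding genes had 1 and 3 called lower and 0 higher in these comparisons, ER-associated degradation had 0 and 1 called lower, and the sensors had 0 called. Under the alternatives, 0 to 2 and 0 to 5 other ER folding genes were called. For ER-associated degradation these ranges were 0 to 2 and 0 to 3, and the combination called 0 to 1 sensor genes. Of all tested genes, 0.667% were called lower with OL9-119 and 1.54% with Tpc + OL9-119.

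Cytosolic heat shock genes answer to another stress. With DMSO, 4 of 13 were higher and 2 lower in PARP1-KO cells, with HSPA6 at 49.1 ± 8.01 CPM (SD, n = 4) against 1.17 ± 1.61 CPM in WT and HSPH1 at a log2 fold change of 0.78. HSPA8, the constitutive Hsp70, was lower by -1.03 (edgeR adjusted p = 2.2e-09). In WT cells, Tpc downregulated 2 of the 13, OL9-119 alone 8 and the combination 7, and 0 were upregulated, with HSPA8 at -1.79 and -1.78. HSPA1B fell by 2.40 and 2.62 on the log2 scale, but it shares most of its sequence with HSPA1A, so the split of reads between them is uncertain. Without Tpc + OL9-119 replicate 1, 4 of the 13 were called in that arm. With only the compared libraries in the fit, 4 were called with OL9-119 and 3 with the combination. The Tpc count ranged from 0 to 4 under the alternatives and from 1 to 3 without single libraries. Of all tested genes, 0.356% were called lower with Tpc, 0.667% with OL9-119 and 1.54% with the combination. In PARP1-KO cells edgeR called 0 of the 13 in any drug arm, with 0, 2 and 1 at an unadjusted p below 0.05 for Tpc, OL9-119 and Tpc + OL9-119.

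Finally, variation among replicates was examined. After subtraction of condition means from the log2 CPM of the 40 libraries, HSPA5 and HSP90B1 deviated together (Pearson r = 0.83), and both did so with XBP1 (0.64 and 0.66). Those were the 3 of 45 pairs with r of at least 0.5, and the median over pairs was 0.12. All 5 WT libraries with replicate number 4 lay below their condition mean for HSPA5, HSP90B1 and XBP1, and no other replicate number of either genotype did so for all of them. With the length and GC correction the values were 0.92 for HSPA5 with HSP90B1 and 0.66 and 0.65 with XBP1. Across all 40 libraries without that subtraction, PDIA4 and HYOU1 had the highest r, at 0.90, but 0.43 after it, and HSPA5 with HSP90B1 had 0.05. These values are descriptions, since the genes share libraries, depth and, for HSPA5, HSP90B1 and XBP1, a GC content of 39.7% to 43.7%. The genes outside the 10 whose log2 CPM was most like the mean of their standardised levels were RP9 (0.75), KRCC1 (0.70), FAM89A (0.70), SLC35B1 (0.68) and the ER chaperone CALR (0.68), among 12161 genes over 40 libraries. The 10 genes themselves followed this mean less closely, with r from -0.06 for DNAJB9 to 0.64 for MANF, and 0.15 for HSPA5. The mean is therefore not a profile that the 10 genes share.

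**Figure D5:**
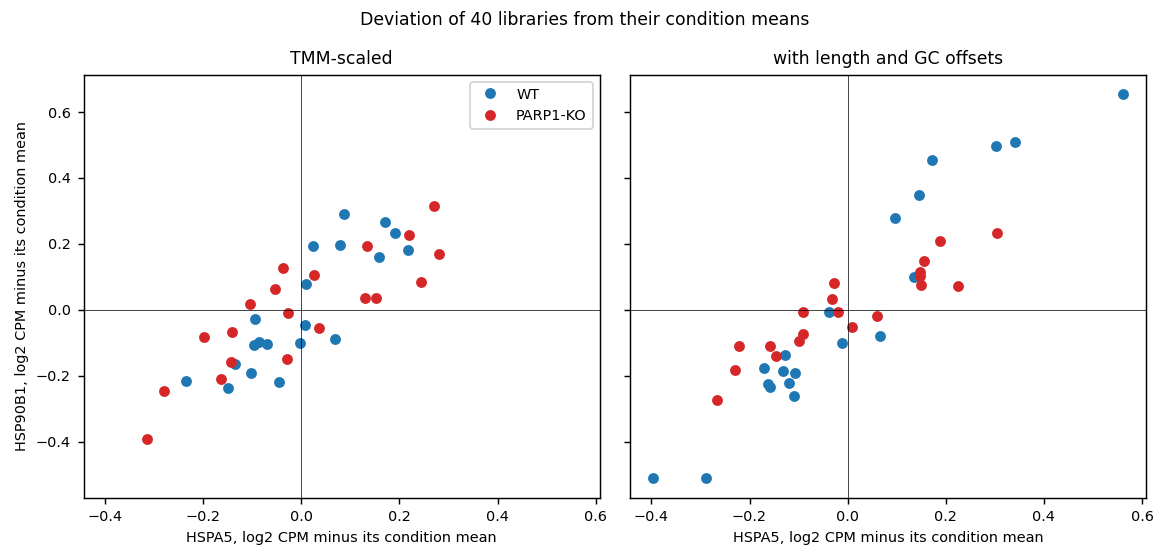
Deviation of HSP90B1 from its condition mean against that of HSPA5 (both in log2 CPM) in the 40 libraries, in WT (blue) and PARP1-KO (red) cells, with TMM scaling (left) and with length and GC offsets (right). The points follow a rising line in both panels, with r of 0.83 and 0.92.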

How the data were processed

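HEK293A WT and PARP1-KO cells were sequenced by the authors as directional poly(A) libraries. Reads were mapped by the authors with STAR 2.7.8 (hg38), and the deposited values are raw counts per gene from its GeneCounts option, not normalized and not pooled. The strand column kept is not stated. Each of the 40 columns was matched to a sample by its name, and 0 columns were left over. Depth (3455043 to 20379777 counts) limits precision for SDF2L1 in particular.

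The 10 genes and all lists were chosen with earlier results of these data known. Genes with at least 10 counts summed over libraries were kept (28922 of 58395). Counts were TMM-normalized, and edgeR 4.0.16 (R 4.3.3) supplied the quasi-likelihood test, with 1 group for each of 10 conditions and no covariate, and a Benjamini-Hochberg adjusted p below 0.01 over all tested genes. The authors used DESeq2, which was run here (1.42.0) as an alternative. DMSO was the comparator of the drug arms because each contains it, and untreated cells were an alternative. A standard error is the log2 fold change divided by the square root of F. The script was tested on simulated data. Symbols, positions and lengths came from GENCODE 44, which matched 57754 genes, and promoters from RefSeq (GRCh38.p14). Named genes were the 10 genes, PARP1, EIF2AK3, ERN1, ATF6, from each list the 2 highest and 2 lowest called values in PARP1-KO against WT with DMSO and in Tpc + OL9-119 against DMSO in WT, and the 5 most alike genes. H2AX, RPS25 and SLC37A4 were named after their values were seen, as were ALG12, SLC3A2 and the other genes with a promoter match. Alternatives were RLE scaling, no count filter, filterByExpr, the replicate block, the name prefix as covariate, length and GC offsets, the compared libraries alone, edgeR without its legacy setting, DESeq2, an adjusted p below 0.05 and leaving out each library.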

Additional observations from a re-analysis of the deposited data

Results flagged for a closer look

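A library whose distance from the other 3 of its condition exceeded the 95% critical value of Dixon's test was found in 7 of 100 gene-by-condition groups, where chance gives about 1 in 20. HSP90B1 was 2298 CPM in WT Tpc replicate 2, against 1747 to 1765 CPM in the others. HERPUD1 was 71.3 CPM in untreated WT replicate 1 (others 36.4 to 40.1 CPM) and 49.2 CPM in WT DMSO replicate 1 (others 35.3 to 36.5 CPM). PDIA4 was 91.4 CPM in PARP1-KO DMSO replicate 1, below the others at 113.3 to 116.4 CPM. CRELD2 was 38.7 CPM in WT OL9-119 replicate 2 (others 24.6 to 26.3 CPM) and 33.4 CPM in PARP1-KO Tpc + OL9-119 replicate 1 (others 21.1 to 21.96 CPM). MANF was 94.3 CPM in untreated WT replicate 1, where the others were 52.9 to 58.9 CPM.

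For 3 responses, every treated WT library lay on 1 side of its DMSO mean and every treated PARP1-KO library on the other. With Tpc + OL9-119, the mean log2 difference of SDF2L1 was -1.21 for WT but 0.30 for the knockout, and that of CRELD2 -0.25 and 0.41. The difference between genotypes did not pass edgeR's interaction test for either (adjusted p = 0.0831 and 0.351). With Tpc, HYOU1 had -0.14 for WT and 0.12 for the knockout, whose nearest library lay only 0.0038 above its DMSO mean. The genotype difference of the Tpc response was not tested. Tpc doses differed between the genotypes here and in the Tpc + OL9-119 arms.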

How the results depend on the processing

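The number of the 10 genes called changed by more than 1.5 times under few settings. With only the compared libraries in the fit, it was 3 in place of 5 for PARP1-KO against WT with DMSO, 2 in place of 4 without treatment, 1 in place of 2 for OL9-119 and 1 in place of 3 for Tpc + OL9-119 in WT cells. Over all genes, the calls fell in that setting as well. They went from 1930 higher and 1662 lower to 761 and 875 with DMSO. Without treatment they went from 1727 and 1659 to 1025 and 1188. In WT cells they went from 141 and 193 to 29 and 17 for OL9-119. For Tpc + OL9-119 in WT cells they went from 532 and 446 to 92 and 44. For Tpc in WT cells the number of the 10 genes called was 1 in place of 0 at an adjusted p below 0.05, with length and GC offsets or with DESeq2, and 2 without a count filter. Leaving out single libraries gave 3 to 4 calls for the genotype with DMSO, 2 to 4 without treatment, 0 to 1 for Tpc and 1 to 3 for Tpc + OL9-119 in WT cells. Of 294 values of the 17 called gene results under alternatives, 250 kept direction and call, 44 kept direction only and 0 reversed. Where the text gives no reason for a change, the cause was not tested. Length and GC offsets changed the split of all genes called in PARP1-KO against WT with DMSO from 1930 higher and 1662 lower to 1621 and 2375. With the replicate number as a block, the counts were 5 with DMSO, 3 without treatment, 2 for OL9-119 and 2 for Tpc + OL9-119 in WT cells. Same-numbered libraries correlated at a mean r of 0.0301 (-0.272 to 0.521), or 0.0741 within a genotype (up to 0.521), and others at -0.00603. Not every pair exceeded 0.1, and pairing was not assumed.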
